A study of Rattus norvegicus with 24 samples.

Results

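The regulators described here are 9 genes that set the capacity of skeletal muscle for oxidative metabolism. They are the coactivators Ppargc1a (PGC-1alpha) and Ppargc1b (PGC-1beta), the fatty acid receptors Ppara and Ppard, the estrogen-related receptors Esrra, Esrrb and Esrrg, the nuclear respiratory factor Nrf1, and Tfam, the factor that packages and transcribes mitochondrial DNA. They were chosen by name, with earlier results of these data known. Values were available for 8 of the 9 among the 10851 genes of the table, and Esrrb was not analysed here.

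RNA was sequenced from the left medial gastrocnemius, a mainly fast-twitch calf muscle, of 24 male Wistar rats, 6 per group and 1 library per rat. Sed rats received saline and stayed sedentary, and Ex rats received saline and trained on a treadmill. CC-Sed and CC-Ex rats received a single injection of monocrotaline, a plant toxin that causes pulmonary hypertension, right heart failure and cardiac cachexia (CC), and were sedentary or trained, respectively. Training and disease ran in parallel, the CC groups hold only animals that lived to the end and showed right ventricular hypertrophy, and muscle was taken after a rest interval that followed the last exercise test. All levels below are CPM, the counts of a gene relative to the library size after TMM scaling. They compare rats for the same gene, not different genes with each other.

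PGC-1alpha and PGC-1beta do not bind DNA themselves. They dock onto receptors and factors such as the PPARs, the ERRs and NRF-1, and so raise transcription of genes for mitochondrial respiration and fatty acid oxidation. In muscle, PGC-1alpha is known for its rise after exercise and for its link to the slow oxidative fibre type, PPARdelta is the main fatty acid receptor, and ERRalpha and ERRgamma drive genes of the respiratory chain. NRF-1 acts on Tfam, whose protein in turn acts on the mitochondrial genome.

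Some of these regulators are also targets of signalling or of each other, and the upstream sequence of 3 of them held a binding motif among the 5 that were searched. RefSeq start sites in build GRCr8 were matched for 8 of the 9 regulators, all but Ppard, and the 250 bases before each start were searched on both strands. This gave 11 windows, as a gene can have several starts. The windows with a match are printed 5′ to 3′ on the strand of the gene, with the match in capitals: Ppargc1a at chr14:63634058-63634307 (+), Ppara at chr7:118712357-118712606 (+) and Tfam at chr20:17355123-17355372 (+).
Ppargc1a: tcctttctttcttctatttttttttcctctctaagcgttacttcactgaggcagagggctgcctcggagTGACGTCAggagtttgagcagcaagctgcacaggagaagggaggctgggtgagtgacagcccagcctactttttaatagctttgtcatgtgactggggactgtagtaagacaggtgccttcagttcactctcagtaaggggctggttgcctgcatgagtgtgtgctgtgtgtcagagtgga
Ppara: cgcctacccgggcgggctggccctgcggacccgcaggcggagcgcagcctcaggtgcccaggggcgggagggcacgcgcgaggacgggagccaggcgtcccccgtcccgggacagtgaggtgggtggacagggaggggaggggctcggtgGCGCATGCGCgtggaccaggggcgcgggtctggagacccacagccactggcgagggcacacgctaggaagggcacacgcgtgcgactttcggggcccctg
Tfam: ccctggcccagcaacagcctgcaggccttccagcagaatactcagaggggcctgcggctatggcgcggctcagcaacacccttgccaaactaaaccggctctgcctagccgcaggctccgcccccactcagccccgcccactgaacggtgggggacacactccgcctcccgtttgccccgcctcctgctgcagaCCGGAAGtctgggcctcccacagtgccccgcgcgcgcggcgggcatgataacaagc
The capitals in Ppargc1a are the cyclic AMP response element TGACGTCA, at positions -181 to -174 from the start, where CREB family factors are known to act. This motif reads the same on both strands and was held by 1.587% of the 33469 promoters in the table. In Ppara, the capitals are an NRF-1 motif, GCGCATGCG, that matched on both strands with an overlap, at positions -100 to -91, and 1.348% of promoters held it. In Tfam, they are the GABP (NRF-2) motif CCGGAAG, at positions -56 to -50, present in 7.272% of promoters. The ERR half-site AAGGTCA (3.992% of promoters) and the MEF2 motif CTATTTATA (0.3317%) had no match in these windows. The shares are over all promoters and were not matched for GC content, which had a median of 51.2%. It was 50.4% in the Ppargc1a window, 76% in that of Ppara and 68.4% in that of Tfam. A match is a run of letters and not a measured binding site.

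Libraries held between 37816239 and 50350554 counts, and every regulator had at least 15 counts in every rat. In CC-Ex, replicate 5 stood apart from all other rats on the first principal component of log2 CPM (39.7% of the variance), at 96.5 against 51.7 for the next rat, and results that rest on it are given with and without it. All 10 skeletal muscle markers were measured. Slow-fibre markers were measured for 5 of 8 genes (Myh7, Myl2 and Tnnt1 were not analysed here) and varied widely. Their summed level was 770 to 4025 CPM in Sed, 1001 to 10707 CPM in Ex, 1170 to 11812 CPM in CC-Sed and 685 to 9060 CPM in CC-Ex. Of the 6 fibroblast markers, summed CPM ranged from 399 to 2836 in Sed and from 481 to 1494 in CC-Sed, and from 830 to 4962 in Ex and from 151 to 1571 in CC-Ex. The 8 measured of 10 fast-fibre markers summed to a median of 138372 CPM in Sed (range 110148 to 173435) against 93191 CPM in CC-Sed (68191 to 173360), and of 137903 CPM in Ex (85289 to 175017) against 138389 CPM in CC-Ex (104609 to 194876). The 3 measured of 5 erythroid markers summed to a median of 115 CPM in Sed (49.9 to 129.8) against 119 CPM in CC-Sed (50.5 to 409), and of 151 CPM in Ex (92.2 to 209.6) against 318 CPM in CC-Ex (33.8 to 960.0). In the mean CC effect (defined below), edgeR called 3 fibroblast markers lower (Col1a1, Col3a1 and Col1a2), 2 erythroid markers higher (Hba-a1 and Hbb), 2 of the 7 measured endothelial markers higher (Vwf and Kdr) and 1 lower (Tie1), 1 of 4 measured adipocyte markers lower (Adipoq) and 1 of the 10 skeletal muscle markers lower (Myod1). These counts stand beside 17.2% of all genes called higher and 10.6% called lower in that effect. None of the slow-fibre, fast-fibre or 7 measured macrophage and leukocyte markers was called, with 1, 2 and 0 at an unadjusted p-value under 0.05 (42.4% of all genes). The part of fibre type and of other cells in the results below was not tested beyond the values given, and in bulk muscle fewer cells of a type and less RNA per cell cannot be told apart.

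Differences between groups were tested in a single edgeR quasi-likelihood model of all 24 rats and all 10851 genes. Genes with a p-value below 0.05 after Benjamini-Hochberg adjustment were called, and they were DEGs if the Log2FC was also at least 1 in size. In Sed vs. CC-Sed, 1 of the 8 measured regulators was called, Ppard, and 6.46% of all genes were. No regulator was a DEG there, against 1.87% of all genes, and 2 regulators (Ppard and Ppargc1a) had an unadjusted p-value under 0.05, against 28.4%. This differs from the study, which used DESeq2 with the same criteria and counted Ppargc1a among its sedentary DEGs. DESeq2 as run here also called 1 of the 8 in Sed vs. CC-Sed, and the source of the difference was not tested. In Ex vs. CC-Ex, edgeR called none of the 8, against 0.995% of all genes, while Ppard alone had an unadjusted p-value under 0.05 (22.6% of all genes) and was called by both DESeq2 and limma-voom. These 2 tools called more genes than the 108 of edgeR there, with 685 in DESeq2 and 1043 in limma-voom. In Sed vs. CC-Sed the counts over all genes were 701, 1331 and 2474 in edgeR, DESeq2 and limma-voom. The average of both CC effects (the mean CC effect) used all 24 rats, and 2 regulators were called, Ppard upwards and Ppargc1b downwards, against 27.8% of all genes, 17.2% higher and 10.6% lower. In that effect 4 regulators (Ppard, Ppargc1b, Esrra and Nrf1) had an unadjusted p-value under 0.05, against 42.4% of all genes. Over all genes edgeR, DESeq2 and limma-voom called 3017, 3478 and 3952 in the mean CC effect. No regulator had CC and control rats that did not overlap, where 3.61% of all genes were without overlap in the sedentary and 1.08% in the exercised comparison. The median Log2FC of the 8 regulators was 0.06 in sedentary and -0.08 in exercised rats, beside 0.02 and 0.01 for all genes. In both pairs 4 of the 8 regulators had a Log2FC above 0 and 4 below.

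**Figure D1:**
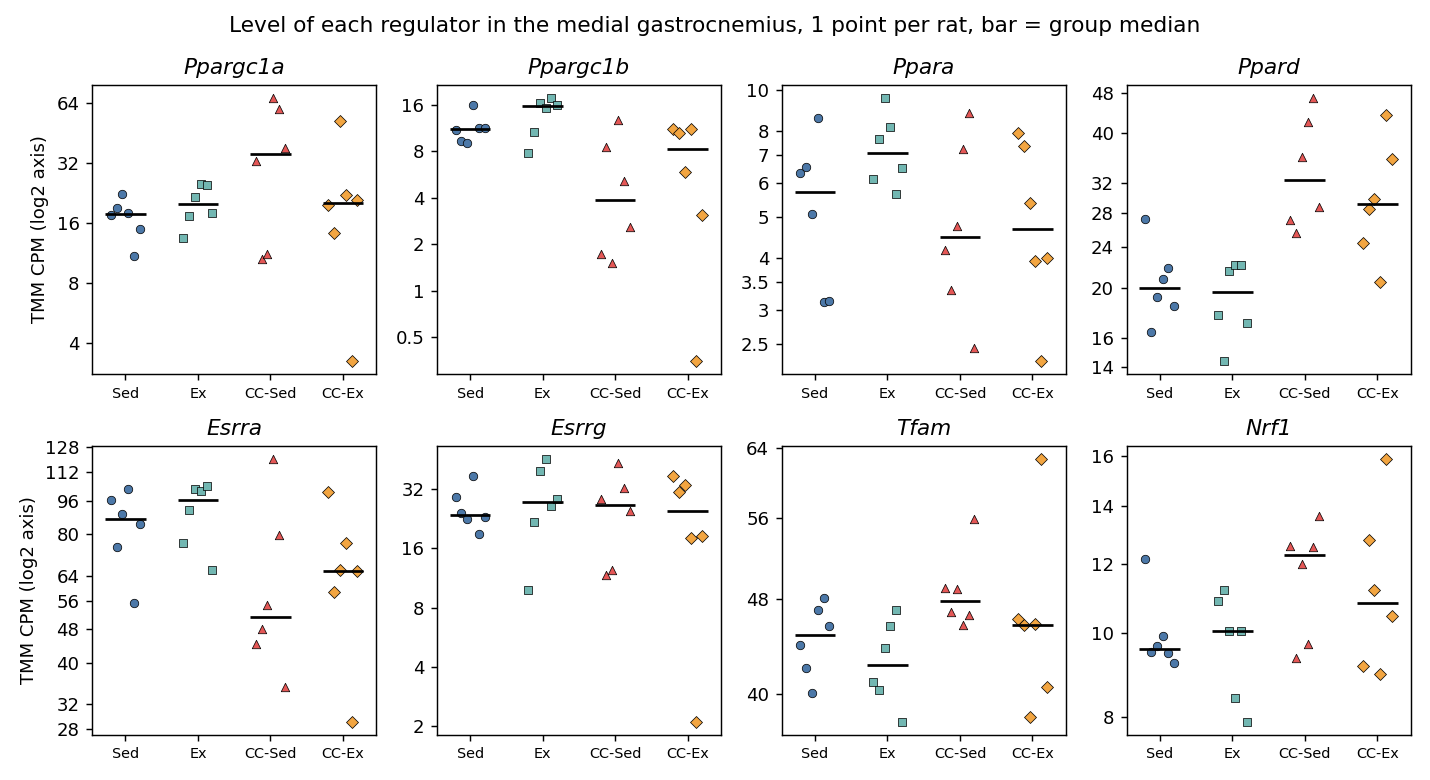
TMM-scaled CPM of the 8 measured regulators (log2 axis, a scale per gene), with 1 point per rat and a bar at the median of each group of 6. Ppard medians were higher in both CC groups than in their controls, the Ppargc1a and Ppargc1b points of the CC groups spread far more than those of the saline groups, and Tfam lay between 37.97 and 62.7 CPM in all 24 rats.

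Ppard, which encodes the fatty acid receptor PPARdelta, was upregulated in CC. It ranged from 16.4 to 27.2 CPM in Sed (median 20.0) and from 25.6 to 46.8 CPM in CC-Sed (median 32.4). All 6 CC-Sed rats lay above the Sed median and 4 lay above every Sed rat. The difference was 1.66-fold, a Log2FC of 0.73 with a standard error of 0.178 (edgeR adjusted p = 0.0210), and a two-sided exact permutation test of the 6 against 6 rats gave p = 0.00649, where 0.00216 is the smallest that 924 arrangements allow. Ppard lost this call when Sed replicate 2 (adjusted p = 0.0599) or Sed replicate 3 (adjusted p = 0.0514) was left out.

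In the trained animals, Ppard levels were 14.4 to 22.2 CPM in Ex (median 19.6) and 20.5 to 43.5 CPM in CC-Ex (median 29.2). Again every CC-Ex rat exceeded the median of Ex, and 5 of the 6 exceeded every Ex rat. The Log2FC was 0.67 with a standard error of 0.178, which missed the threshold (edgeR adjusted p = 0.0616) and passed it in DESeq2 (adjusted p = 0.0143) and in limma-voom (adjusted p = 0.0179). Leaving out CC-Ex replicate 1 or replicate 4 gave a call (adjusted p = 0.0346 and 0.0161), and without CC-Ex replicate 5 the Log2FC of Ppard was 0.52 (adjusted p = 0.195). Taken over both pairs of groups, the mean CC effect on Ppard was 0.70 with a standard error of 0.126 (edgeR adjusted p = 9.24e-04), and it was called in all 24 fits that each left out 1 rat. The effects in sedentary and in trained rats differed by -0.07 with a standard error of 0.251 (edgeR interaction, unadjusted p = 0.787). The groups with the highest and second-highest medians were CC-Sed and CC-Ex, which did not differ beyond their spread (Log2FC -0.18, standard error 0.177), and neither did Sed and Ex (Log2FC -0.11, standard error 0.178).

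Ppara, the related receptor that drives fatty acid oxidation in liver and heart as well as muscle, was called in neither pair. Its levels were low, from 3.14 to 8.57 CPM in Sed (median 5.71) and from 2.44 to 8.83 CPM in CC-Sed (median 4.46). The trained groups ranged from 5.66 to 9.56 CPM in Ex (median 7.08) and from 2.28 to 7.90 CPM in CC-Ex (median 4.69). Both pairs overlapped, although 4 of 6 CC-Ex rats lay below every Ex rat. The Log2FC was -0.09 in sedentary rats and -0.50 in trained rats, with standard errors of 0.313 and 0.312, and neither passed (edgeR adjusted p = 0.864 and 0.327).

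The coactivator Ppargc1a had a wide spread within the CC groups. Sed rats held 11.0 to 22.3 CPM (median 17.8) and Ex rats 13.5 to 25.1 CPM (median 19.9). CC-Sed rats held 10.7 to 68.1 CPM (median 35.6), and CC-Ex rats 3.26 to 52.4 CPM (median 20.4). In CC-Sed the rats fell on both sides of the controls: replicates 1, 4, 5 and 6 (32.8, 68.1, 60.1 and 38.3 CPM) were above every Sed rat, while replicates 2 and 3 (10.7 and 11.2 CPM) were near the lowest Sed rat. The coefficient of variation of Ppargc1a was 65.1% in CC-Sed and 73.9% in CC-Ex, against 22.5% in Sed and 22.7% in Ex.

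With this spread, the 2.15-fold higher Ppargc1a level fitted for CC-Sed against Sed was not called (Log2FC 1.104, standard error 0.456, edgeR adjusted p = 0.122). When the slow-fibre marker score (the mean log2 CPM of the 5 measured markers) was a covariate, the Log2FC of Ppargc1a was 0.55 (adjusted p = 0.345). In trained rats the Log2FC was 0.14 with a standard error of 0.451, and it was 0.35 without CC-Ex replicate 5, the rat with the lowest value (adjusted p = 0.861 and 0.733). The difference of mean log2 CPM was 0.80 in sedentary and -0.22 in trained rats (two-sided exact permutation p = 0.130 and 0.736). CC-Ex rats had a Ppargc1a Log2FC of -0.73 against CC-Sed rats (standard error 0.452, edgeR unadjusted p = 0.118), and 5 of the 6 were below the CC-Sed median. This value ran from -1.19 (without CC-Ex replicate 3) to -0.47 (without CC-Sed replicate 4) with 1 rat left out. The interaction was -0.96 with a standard error of 0.639 (edgeR unadjusted p = 0.145). In Sed vs. Ex the Log2FC of Ppargc1a was 0.23 with a standard error of 0.452, and 2 of the 6 Ex rats lay above every Sed rat.

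Ppargc1b, the second coactivator of the family, went the other way. It ranged from 9.07 to 16.0 CPM in Sed (median 11.2) and from 1.52 to 12.8 CPM in CC-Sed (median 3.88). In the trained groups it ranged from 7.84 to 17.6 CPM in Ex (median 15.6) and from 0.352 to 11.2 CPM in CC-Ex (median 8.23). In CC-Sed, 5 of the 6 rats were below every Sed rat, and all 6 CC-Ex rats were below the Ex median, 3 of them below every Ex rat.

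The Log2FC of Ppargc1b was -1.08 in sedentary rats (standard error 0.534, edgeR adjusted p = 0.186) and -0.98 in trained rats (standard error 0.530, edgeR adjusted p = 0.262). Two-sided exact permutation tests on log2 CPM gave p = 0.0281 and p = 0.0260 for these pairs, among 32 such tests of the regulators without adjustment. Also under 0.05 were Ppard in sedentary and trained rats (exact p = 0.00649 and 0.00866). So were Esrra in Ex vs. CC-Ex and Tfam in Sed vs. CC-Sed (exact p = 0.0390 for both). For Ppargc1b the exact tests compared mean log2 CPM, with differences of -1.48 and -1.54 rather than the fitted Log2FC. Over all 24 rats the mean CC effect was -1.03 with a standard error of 0.376, a 0.490-fold level that passed narrowly (edgeR adjusted p = 0.0449) and made Ppargc1b the only regulator that met the DEG criteria in any comparison, beside 2.88% of all genes in the mean CC effect. The call held in 7 of the 24 fits that each left out 1 rat (without Ex replicate 1, CC-Sed replicate 2 or 4, or CC-Ex replicate 1, 2, 4 or 5). In the other 17 the adjusted p-value lay just above the threshold, at most 0.0787 (without CC-Sed replicate 6), with the Log2FC between -0.93 and -1.06. Without CC-Ex replicate 5, where Ppargc1b had only 15 counts, the mean CC effect was -0.92 (adjusted p = 0.0334). With the library number of the labels as a covariate (1, 2, 3, 5, 10 and 14 for the CC-Ex rats) it was -1.15 and not called (adjusted p = 0.118). The effects in sedentary and in trained rats differed by 0.10 with a standard error of 0.745.

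Since both coactivators were measured in the same libraries, their balance could be read within each rat. The Ppargc1a to Ppargc1b ratio of CPM was 0.969 to 2.46 in Sed (median 1.46) and 1.13 to 1.72 in Ex (median 1.53). In CC-Sed it was 1.255 to 19.0 (median 9.51), and in CC-Ex it was 1.35 to 9.27 (median 4.40). Ratios above those of all 12 saline rats were found in 5 CC-Sed rats (5.32, 7.36, 11.7, 14.7 and 19.0) and in 3 CC-Ex rats (6.81, 8.88 and 9.27). The remaining rats, CC-Sed replicate 2 and CC-Ex replicates 1, 2 and 4, had ratios between 1.255 and 2.00, inside the saline range. A high ratio went with different absolute levels: CC-Sed replicate 1 had 32.8 CPM of Ppargc1a and 1.73 CPM of Ppargc1b, while CC-Ex replicate 5 had 3.26 and 0.352 CPM. The ratio combines both genes across their different transcript lengths, so only its differences between rats can be read, and no test was made of it.

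**Figure D2:**
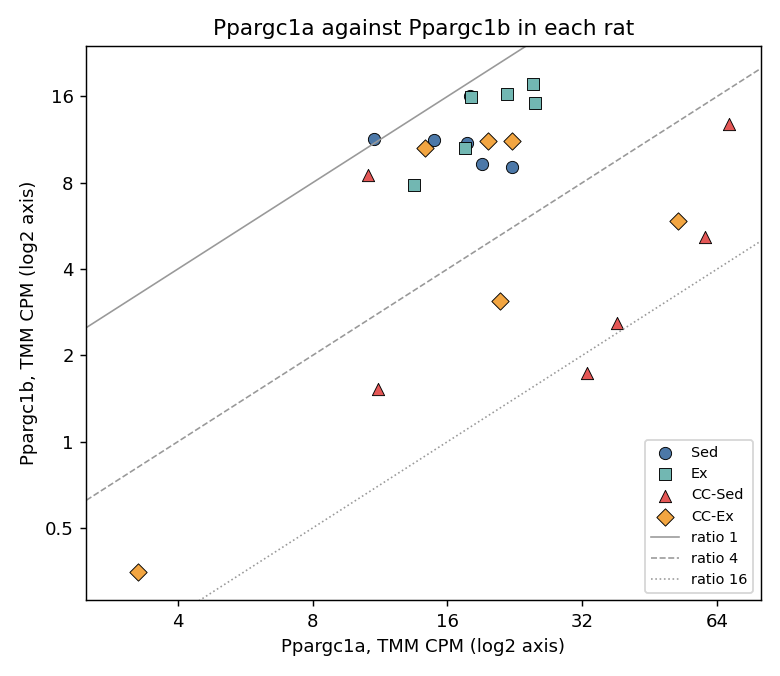
Ppargc1a against Ppargc1b in each of the 24 rats (TMM CPM, log2 axes), with grey lines at ratios of 1, 4 and 16. The 12 saline rats sit together near the ratio 1 line, at 0.969 to 2.46, and 8 of the 12 CC rats sit to the lower right of the ratio 4 line, at 5.32 to 19.0.

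Esrra, the estrogen-related receptor that PGC-1alpha induces and works through, had lower medians in both CC groups, with differences that did not pass the test. It ranged from 55.2 to 102 CPM in Sed (median 86.9) and from 35.2 to 120 CPM in CC-Sed (median 51.3). Here 4 of the 6 CC-Sed rats were below every Sed rat, and replicate 4, at 120 CPM, was above all of them. In Ex the range was 66.2 to 104 CPM (median 96.1) and in CC-Ex 29.2 to 101 CPM (median 65.8), with 4 of 6 CC-Ex rats below every Ex rat. The Log2FC was -0.40 in sedentary rats and -0.45 in trained rats, each with a standard error of 0.263 (edgeR adjusted p = 0.324 and 0.2995). With 1 rat left out, the sedentary value of Esrra ran from -0.68 (without CC-Sed replicate 4, adjusted p = 0.0550) to -0.28 (without CC-Sed replicate 6).

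The mean CC effect on Esrra was -0.42 with a standard error of 0.186 (edgeR adjusted p = 0.0883). It passed in limma-voom (Log2FC -0.47, adjusted p = 0.0114), with the slow-fibre score as a covariate (-0.48, adjusted p = 0.0331), without CC-Sed replicate 4 (-0.56, adjusted p = 0.0129) and without CC-Ex replicate 1 (-0.50, adjusted p = 0.0417). Without CC-Ex replicate 5 it was -0.36 (adjusted p = 0.129).

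Esrrg, the related receptor abundant in slow oxidative fibres, overlapped broadly between all 4 groups. Its range was 18.9 to 37.2 CPM in Sed (median 23.6) and 11.7 to 43.3 CPM in CC-Sed (median 26.5). Among trained rats it was 9.77 to 45.3 CPM in Ex (median 27.3) and 2.11 to 37.1 CPM in CC-Ex (median 24.5), where replicate 5 was the lowest. The Log2FC was -0.02 in sedentary rats and -0.29 in trained rats, and the bounds of 2 standard errors on either side were -0.90 and 0.86, and -1.17 and 0.59. With 1 rat left out, the Log2FC of Esrrg in trained rats ran from -0.47 to -0.056, the latter without CC-Ex replicate 5 (edgeR adjusted p = 0.962).

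Nrf1 and Tfam, the factors closest to the mitochondrial genome, varied little. Nrf1 ranged from 9.23 to 12.2 CPM in Sed (median 9.59) and from 9.37 to 13.6 CPM in CC-Sed (median 12.3). In Ex it ranged from 7.90 to 11.2 CPM (median 10.1) and in CC-Ex from 8.97 to 15.9 CPM (median 10.8). Above all their controls were 3 of the 6 CC-Sed rats and 2 of the 6 CC-Ex rats. The mean CC effect on Nrf1 was 0.22 with a standard error of 0.0951 (edgeR adjusted p = 0.0773), and it was 0.15 without CC-Ex replicate 5 (adjusted p = 0.191). It passed without CC-Sed replicate 2 (adjusted p = 0.0484), CC-Sed replicate 4 (0.0490), CC-Ex replicate 1 (0.0466) or CC-Ex replicate 4 (0.0414).

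Tfam held 40.1 to 48.05 CPM in Sed (median 44.8) and 45.6 to 55.9 CPM in CC-Sed (median 47.8), with all 6 CC-Sed rats above the Sed median. The trained groups held 37.97 to 47.0 CPM in Ex (median 42.3) and 38.3 to 62.7 CPM in CC-Ex (median 45.7). The coefficient of variation of Tfam within groups was 6.79% to 8.01% in Sed, Ex and CC-Sed and 18.4% in CC-Ex, where replicate 5 had the highest value. Its mean CC effect was 0.13 with a standard error of 0.0681 (edgeR adjusted p = 0.144), and it was 0.06 without CC-Ex replicate 5 (adjusted p = 0.395).

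Training was tested in Sed vs. Ex and in CC-Sed vs. CC-Ex. None of the 8 regulators was called in either comparison or in the interaction by edgeR, DESeq2 or limma-voom, and none had an unadjusted edgeR p-value under 0.05. Over all genes edgeR, DESeq2 and limma-voom also called 0 genes in each (0% of 10851), with 118, 234 and 154 genes (1.09%, 2.16% and 1.42%) at an unadjusted edgeR p-value under 0.05 in Sed vs. Ex, CC-Sed vs. CC-Ex and the interaction. Among the regulators, the largest training Log2FC in saline rats was that of Ppara, at 0.41 with a standard error of 0.312, and 5 of 6 Ex rats lay above the Sed median. In CC rats it was that of Ppargc1a, given above. The training effects on Tfam (-0.06 and -0.07, standard error 0.0964 and 0.0963) and Nrf1 (-0.04 and -0.03, standard error 0.135 and 0.134) were within 1 standard error of 0.

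**Figure D3:**
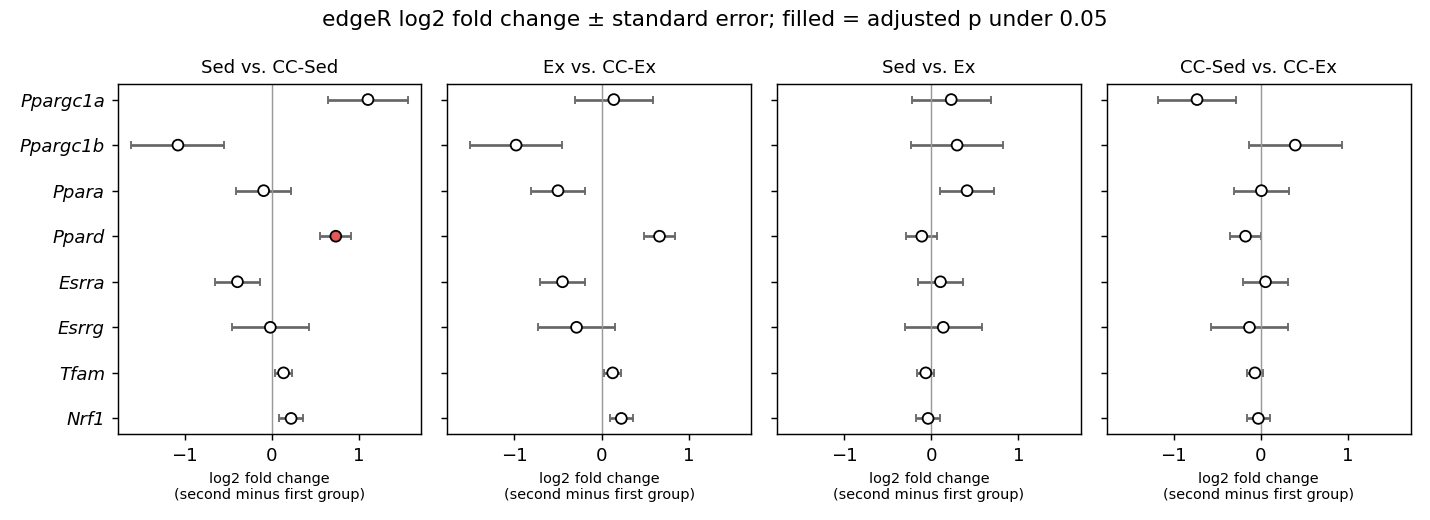
Log2FC of the 8 regulators in the 4 comparisons of groups, with the second group relative to the first, bars of 1 standard error, and filled points for an edgeR adjusted p-value under 0.05. Only Ppard in Sed vs. CC-Sed is filled, at 0.73, the Ppargc1a and Ppargc1b points lie on opposite sides of 0 in that panel at 1.104 and -1.08, and the error bars of Tfam and Nrf1 are the shortest.

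Within groups, several regulators rose and fell together from rat to rat. Correlations were computed over 24 rats on log2 CPM with the group means removed, for all 28 pairs of the 8 regulators, with permutation p-values adjusted over the 28. Passing values were found for 8 pairs, 7 positive and 1 negative. Ppargc1a and Esrrg had the highest, r = 0.83 and rho = 0.60 (permutation p = 0.00011 and 0.00513, adjusted p = 0.00308 and 0.0287), and r was 0.67 without the 2 rats farthest from the median of Ppargc1a. Ppara with Esrra had r = 0.75 and rho = 0.67 (permutation p = 0.00033 and 0.00198, adjusted p = 0.00373 and 0.0260), and 0.63 without the 2 farthest rats. Ppara with Esrrg had r = 0.67 and rho = 0.69 (permutation p = 0.0004 and 0.00025, adjusted p = 0.00373 and 0.00700), and 0.65 without the 2 farthest rats.

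Ppargc1b correlated with Esrrg at r = 0.75 and rho = 0.58 (permutation p = 0.00839 and 0.00947, adjusted p = 0.0336 and 0.0379) and with Esrra at r = 0.71 and rho = 0.65 (permutation p = 0.00523 and 0.00279, adjusted p = 0.0244 and 0.0260). Without the 2 farthest rats these fell to r = 0.45 and r = 0.46. The remaining positive pairs were Esrra with Esrrg (r = 0.68, rho = 0.59, permutation p = 0.00257 and 0.00380, adjusted p = 0.0180 and 0.0266) and Ppargc1a with Esrra (r = 0.65, rho = 0.59, permutation p = 0.0141 and 0.00801, adjusted p = 0.0492 and 0.0374), both with r = 0.48 without the 2 farthest rats. The negative pair was Ppargc1b with Nrf1, at r = -0.68 and rho = -0.56 (permutation p = 0.00418 and 0.0137, adjusted p = 0.0234 and 0.0479), and r was -0.48 without the 2 farthest rats. Ppard took part in no passing pair, with r between -0.28 and 0.39 over the 24 rats and between -0.04 and 0.44 without CC-Ex replicate 5.

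CC-Ex replicate 5 was among the 2 farthest rats for every pair. Without it, 3 pairs passed, Ppargc1a with Esrrg (r = 0.69, permutation p = 0.00091, adjusted p = 0.0255), Ppara with Esrra (r = 0.68, permutation p = 0.00271, adjusted p = 0.0379) and Ppara with Esrrg (r = 0.58, permutation p = 0.00454, adjusted p = 0.0424). Among the 12 CC rats alone 2 of the 28 pairs passed, Ppargc1a with Esrrg and Ppara with Esrra (r = 0.87 and 0.83, adjusted permutation p = 0.0342 for both), and among the 12 saline rats none did (smallest adjusted permutation p = 0.113). In these smaller sets the Spearman values did not pass after adjustment, other than that of Ppara with Esrrg without CC-Ex replicate 5 (rho = 0.67, adjusted permutation p = 0.0297). Among saline rats the r of Ppargc1a with Esrrg was 0.68 and that of Ppara with Esrra was 0.57. Ppargc1b with Esrrg had r = 0.81 in the saline rats and 0.77 in the CC rats, and Ppargc1a with Esrra had 0.73 and 0.65.

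**Figure D4:**
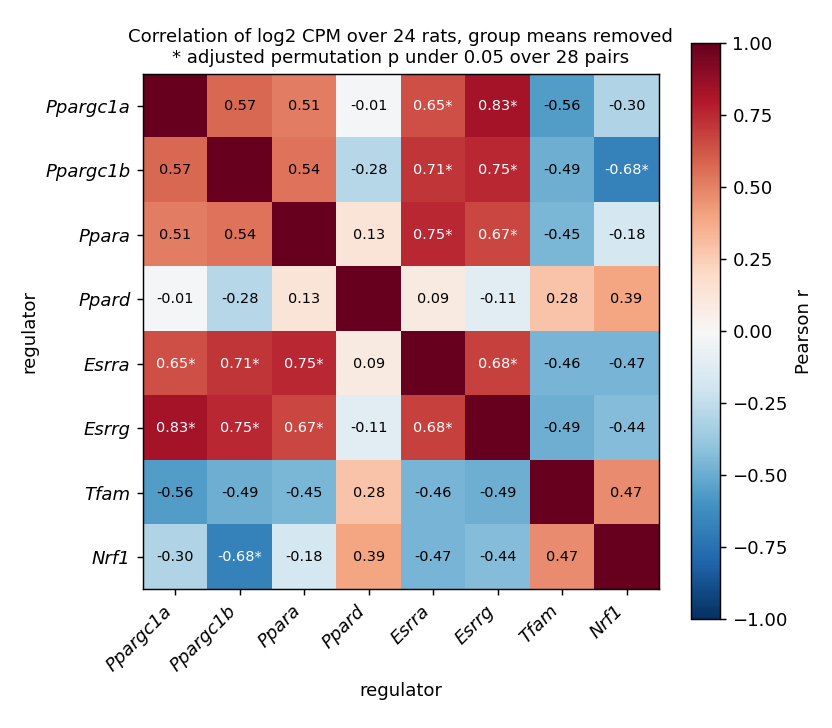
Pearson r between the regulators over 24 rats, computed on log2 CPM with group means removed and shown from -1 (blue) to 1 (red), with stars for an adjusted permutation p-value under 0.05 among 28 pairs. Ppargc1a, Ppargc1b, Ppara, Esrra and Esrrg form a block of positive values from 0.51 to 0.83, and without CC-Ex replicate 5 the lowest value in it is 0.19, that of Ppargc1a with Ppargc1b.

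Several of these regulators also followed the slow-fibre marker score from rat to rat. Over 24 rats with group means removed, and among 8 such relations, Esrrg had r = 0.81 and rho = 0.86 with the score (permutation p = 1e-05 for both, the smallest that 100000 permutations can give, and adjusted p = 8e-05), and r = 0.88 without the 2 rats farthest on the score. Ppara had r = 0.58 and rho = 0.63 (permutation p = 0.0079 and 0.00199, adjusted p = 0.0211 and 0.00796), and r = 0.49 without the 2 farthest. Ppargc1a had r = 0.64 (permutation p = 0.00189, adjusted p = 0.00756) but rho = 0.41 (permutation p = 0.0676, adjusted p = 0.135), and r = 0.64 without the 2 farthest. Esrra missed the threshold after adjustment (r = 0.49, rho = 0.49, permutation p = 0.0315 and 0.0189, adjusted p = 0.0631 and 0.0505), and Ppargc1b, Ppard, Tfam and Nrf1 had r of 0.38, 0.19, -0.33 and -0.08, none of which passed. With the score removed from both genes, 7 of the 28 pairs of regulators passed, 5 positive and 2 negative, and Ppargc1b with Esrrg was the highest (r = 0.83, adjusted permutation p = 5.6e-04). The pairs were not all the same: Ppara with Esrrg (r = 0.42) and Ppargc1a with Esrra (r = 0.49) no longer passed (adjusted permutation p = 0.126 for both). Esrrg with Nrf1 newly passed (r = -0.64, adjusted permutation p = 0.0276). By Spearman, only Ppargc1b with Esrrg and Ppara with Esrra passed (rho = 0.78 and 0.67, adjusted permutation p = 0.0014 and 0.0223).

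Over all 10851 genes, the 3 most similar to each regulator were taken by the same centred correlation over the 24 rats, as a description. Esrrg was closest to Zfp827 (r = 0.97), Ptpn3 (0.95) and Mcu (0.95), the pore of the mitochondrial calcium uniporter. Mcu was also among the 3 closest to Ppargc1a (0.86), after Sim2 (0.87) and Coprs (0.86). Esrra was closest to Atat1 (0.98), Kyat1 (0.97) and Sdhc (0.97), a subunit of respiratory complex II. For Ppargc1b the closest were Best3 (0.96), Osr1 (0.95) and Angptl2 (0.95), and for Tfam they were Mrpl55 (0.89), a mitochondrial ribosomal protein, Imp4 (0.88) and Rnf167 (0.87). Ppard had lower values, with Etfbkmt (0.81), Tomm40 (0.78), the channel for protein import into mitochondria, and Ccdc93 (0.75). Ppara came with Map3k5 (0.86), Cspg4b (0.83) and Rbms2 (0.82), and Nrf1 with Ruvbl2, Ccdc191 and Pcyt1a (0.81 for each).

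The regulators act through partners and on targets, and these were followed with lists of genes chosen by name, with earlier results of these data known. The PPAR list holds genes that the study had reported among its sedentary DEGs in these rats, Decr1 and Acadl among them. Its counts are therefore a description and not independent support. Among 22 measured of 26 PPAR target genes, 7 rose and none fell in Sed vs. CC-Sed, beside 4.3% of all genes higher and 2.16% lower. The median Log2FC of the list was 0.69, against 0.02 for all genes, and all 22 values were above 0. The 5 with the smallest adjusted p-values were Cpt1b, the entry step for long-chain fatty acids into mitochondria (Log2FC 0.89, standard error 0.198, edgeR adjusted p = 0.0147), Decr1, an enzyme for unsaturated fatty acids (1.21, 0.272, adjusted p = 0.0147, in the same order here and below), Mlycd, which removes the inhibitor of Cpt1b (0.83, 0.209, adjusted p = 0.0247), Acadl, an acyl-CoA dehydrogenase (0.98, 0.269, adjusted p = 0.0367), and Hadhb, of the trifunctional protein (0.66, 0.187, adjusted p = 0.0415). Cpt1b went from 206 to 363 CPM in Sed (median 254) to 289 to 615 CPM in CC-Sed (median 504), with some overlap, while Decr1 went from 19.0 to 35.2 CPM (median 28.2) to 39.9 to 85.1 CPM (median 59.4), with none. The count was 4 with upper-quartile normalization and 11 in limma-voom (which called 2474 of all 10851 genes), and it fell to 2 without Sed replicate 2, 3 or 5 or CC-Sed replicate 5 or 6, to 3 without CC-Sed replicate 1 and to 4 without Sed replicate 1 or 6 or CC-Sed replicate 3.

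In Ex vs. CC-Ex, none of the 22 PPAR targets passed in edgeR, 3 had an unadjusted p-value under 0.05 (22.6% of all genes), DESeq2 called 1 and limma-voom none, and the median was 0.10. Without CC-Ex replicate 4, 2 passed. The smallest p-values were those of Pdk4, which holds back glucose oxidation (Log2FC 2.32, standard error 0.808, edgeR adjusted p = 0.116), and Mlycd (0.59, 0.208, adjusted p = 0.120). Over both pairs 9 rose and none fell, led by Mlycd (0.71, standard error 0.147, edgeR adjusted p = 0.00236), Cpt1b (0.64, 0.139, adjusted p = 0.00345), Pdk4 (2.34, 0.572, adjusted p = 0.00635) and Decr1 (0.75, 0.191, adjusted p = 0.00799), beside 17.2% of all genes higher and 10.6% lower. Pdk4 spread over 36.1 to 645 CPM in Sed, 28.8 to 467 CPM in Ex, 663 to 1738 CPM in CC-Sed and 71.4 to 1848 CPM in CC-Ex. Without CC-Ex replicate 5, 10 PPAR targets passed for the mean CC effect, and 5 passed without Sed replicate 2 or 3, Ex replicate 1 or 6, or CC-Ex replicate 1. Between CC-Sed and CC-Ex, all 22 PPAR targets had Log2FC values below 0 with a median of -0.39, none passed in edgeR, with 6 of them at an unadjusted p under 0.05. The difference between the CC effects in trained and sedentary rats was below 0 for 21 of the 22, with a median of -0.58, but none passed in edgeR, with 4 at an unadjusted p under 0.05. These directions were not particular to the PPAR targets, as the values of the ERR and NRF-1 targets and mitochondrially encoded genes below show. The slow-fibre markers moved alongside, with median Log2FC values of 1.70 in sedentary rats, 0.16 in trained rats and -0.45 between CC-Sed and CC-Ex, none of them called. The study, in contrast, counted the slow-fibre markers Tnnc1, Tpm3, Tnni1 and Myl3 among its sedentary DEGs. With the slow-fibre score as a covariate, 9 PPAR targets passed in Sed vs. CC-Sed and 1 in Ex vs. CC-Ex.

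The ERR and NRF-1 targets had no such count of called genes. Of 23 measured of 24 genes, most belong to the respiratory chain or the citric acid cycle. None of the 23 was called by edgeR in Sed vs. CC-Sed, in Ex vs. CC-Ex or in the mean CC effect. In these, 1, 0 and 1 had an unadjusted p-value under 0.05, against 28.4%, 22.6% and 42.4% of all genes. DESeq2 called none of the 23, and limma-voom called 4 in the mean CC effect alone (3952 of all 10851 genes). In the mean CC effect edgeR called 4 without CC-Sed replicate 4 and 1 without CC-Ex replicate 1 or 4. Their median Log2FC was -0.04 in sedentary and -0.24 in trained rats. Between CC-Sed and CC-Ex, 2 of the 23 had a Log2FC above 0, with a median of -0.099. In the interaction 0 of the 23 did, with a median of -0.22. Etfa, an electron carrier for fatty acid oxidation, had the smallest p-value in sedentary rats (0.42, standard error 0.188, edgeR adjusted p = 0.151), and Idh3a, of the citric acid cycle, in trained rats (-0.37, 0.208, adjusted p = 0.285). The 13 genes encoded by mitochondrial DNA, which Tfam helps to transcribe, had medians of -0.18 and -0.43. None passed in edgeR or DESeq2 in these comparisons, with 0 and 5 genes at an unadjusted edgeR p-value under 0.05 (28.4% and 22.6% of all genes). By limma-voom 0 and 2 of them were called, beside 2474 and 1043 of all 10851 genes. The smallest p-values in trained rats were those of Mt-nd5 (-0.55, standard error 0.202, edgeR adjusted p = 0.127) and Mt-nd4l (-0.61, 0.236, adjusted p = 0.143). In the mean CC effect edgeR called 0, with 6 at an unadjusted p-value under 0.05 (42.4% of all genes). DESeq2 called 4 of the 13 there, beside 3478 of all genes, and limma-voom 5, beside 3952. Leaving out a rat gave 6 edgeR calls in this list without CC-Ex replicate 1, 5 without CC-Sed replicate 4, 4 without Sed replicate 5 or Ex replicate 1, 3 without CC-Sed replicate 5 and 2 without CC-Ex replicate 4. In CC-Sed vs. CC-Ex and in the interaction, 0 of the 13 had a Log2FC above 0, with medians of -0.34 and -0.33. None was called there by edgeR.

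All 12 listed nuclear genes with a part in mitochondrial DNA expression, directly or through other nuclear genes, were measured. Polg2, the accessory subunit of the mitochondrial DNA polymerase, rose in Sed vs. CC-Sed (Log2FC 0.94, standard error 0.271, edgeR adjusted p = 0.0446) at levels of only 0.816 to 3.93 CPM in these rats. With 1 rat left out, Polg2 kept the call without Sed replicate 1, CC-Sed replicate 2 or CC-Sed replicate 4 and lost it in the other 9 fits. In the mean CC effect 3 rose, Polrmt, the mitochondrial RNA polymerase (0.42, 0.104, adjusted p = 0.00672), Polg2 (0.66, 0.191, adjusted p = 0.0154) and Yy1, a partner of PGC-1alpha (0.29, 0.102, adjusted p = 0.0389), and none fell. These 3 of 12 stand beside 17.2% of all genes higher and 10.6% lower. Without CC-Ex replicate 5, 2 passed.

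Among 19 partners and co-regulators, all measured, 2 rose and none fell in Sed vs. CC-Sed, where 4.3% of all genes rose and 2.16% fell. They were Crebbp, an acetyltransferase that works with nuclear receptors (Log2FC 0.54, standard error 0.106, edgeR adjusted p = 0.00834), and Sirt1, the deacetylase that activates PGC-1alpha (0.52, 0.118, adjusted p = 0.0147). Sirt1 held 8.70 to 9.39 CPM in Sed and 10.9 to 16.4 CPM in CC-Sed, with no overlap, as for 2.32% of all genes in that direction. None of the 19 was called by edgeR in Ex vs. CC-Ex, where 8 had an unadjusted p-value under 0.05 (22.6% of all genes). DESeq2 and limma-voom each called 3 of the 19 there, beside 685 and 1043 of all 10851 genes. Without CC-Ex replicate 4 edgeR called 4, and without CC-Ex replicate 1 it called 2. In the mean CC effect 7 of the 19 rose and none fell, where 17.2% of all genes rose and 10.6% fell. The smallest p-values were those of Crebbp (0.46, standard error 0.0747, adjusted p = 3.95e-04), Sirt1 (0.46, 0.0830, adjusted p = 0.00100), Lpin1, a partner of PGC-1alpha and PPARalpha (1.21, 0.302, adjusted p = 0.00718), Mybbp1a, a repressor of PGC-1alpha (0.83, 0.250, adjusted p = 0.0189), and Rxrb, a receptor that pairs with the PPARs (0.30, 0.0952, adjusted p = 0.0243). Without CC-Ex replicate 5, 8 passed, and 12 passed without CC-Ex replicate 4.

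The kinases and factors upstream of PGC-1alpha, 18 measured of 19, had no called gene in either pair of groups by edgeR, with 9 and 2 at an unadjusted p-value under 0.05 (28.4% and 22.6% of all genes). DESeq2 called 1 and 0 of them, beside 1331 and 685 of all 10851 genes, and limma-voom 7 and 1, beside 2474 and 1043. Without CC-Sed replicate 2 or 4, edgeR called 2 and 3 in the sedentary pair. In the mean CC effect 2 rose, Atf2 (Log2FC 0.30, standard error 0.0877, edgeR adjusted p = 0.0153) and Crtc2 (0.40, 0.148, adjusted p = 0.0462), both coupled to the cyclic AMP response element. Together 7 of the 18 were called, against 27.8% of all genes. The 5 that fell were Prkab1 (-0.32, 0.0894, adjusted p = 0.0137) and Prkaa2 (-0.46, 0.147, adjusted p = 0.0247), subunits of AMP-activated kinase, Sirt3, a mitochondrial deacetylase (-0.53, 0.162, adjusted p = 0.0202), Camk2a, a calcium-dependent kinase (-0.57, 0.190, adjusted p = 0.0298), and Ppp3cb, a calcineurin subunit (-0.34, 0.123, adjusted p = 0.0438). Without Sed replicate 3, CC-Sed replicate 1 or CC-Sed replicate 6, 4 of the 18 passed, and 5 passed without CC-Ex replicate 5.

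**Figure D5:**
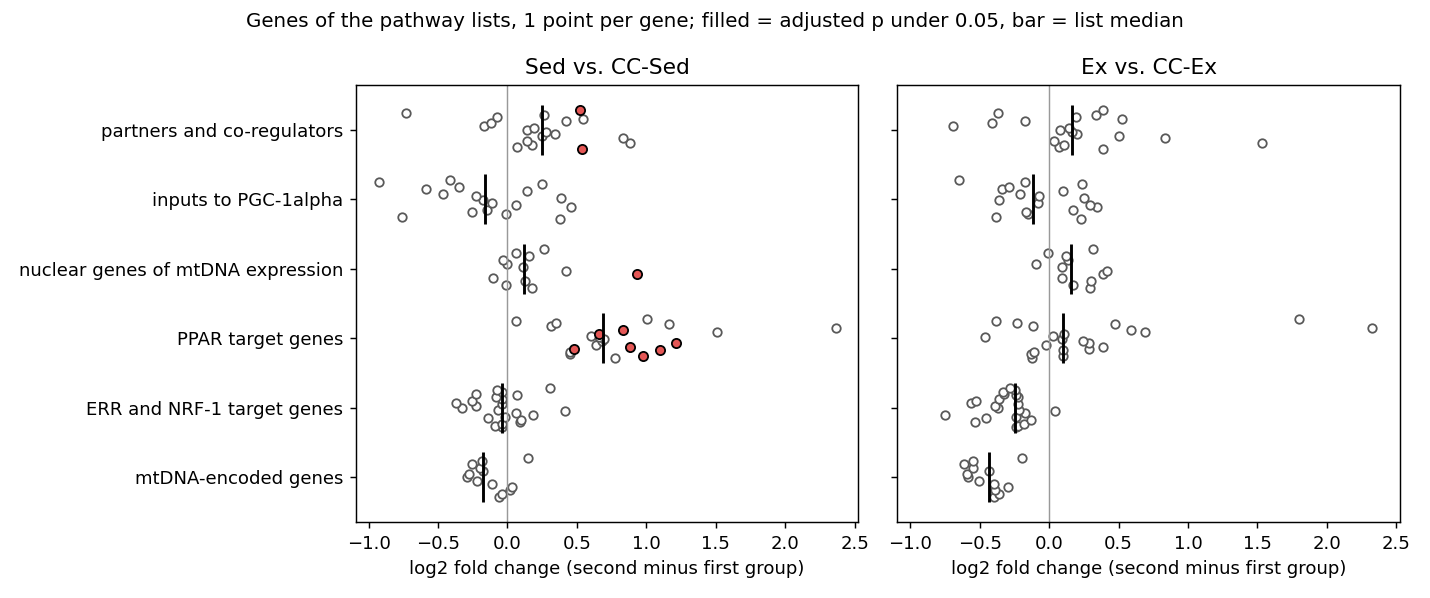
Log2FC of every measured gene of the 6 lists around the regulators, in sedentary (left) and trained (right) rats, with CC relative to control, 1 point per gene, filled for an edgeR adjusted p-value under 0.05 and with a bar at the list median. PPAR targets lie to the right of 0 in sedentary rats with 7 filled points and a median of 0.69, against none filled and 0.10 in trained rats, while ERR and NRF-1 targets and mitochondrially encoded genes have medians below 0 in both panels.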

How the data were processed

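Poly-A selected, stranded RNA-seq libraries of the left medial gastrocnemius of 24 rats were used, 6 per group and 1 library per rat. Per the labels, reads were trimmed with Trim Galore and quantified with Salmon against mRatBN7.2, and the authors tested genes with DESeq2 1.44.0. The deposited table holds counts for 10851 genes, 13 of them without a symbol, with a lowest count of 10, so genes with low counts had been left out before deposit. Library totals of these counts were 37816239 to 50350554 (median 42891611).

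TMM factors, filterByExpr (which kept all 10851 genes) and the quasi-likelihood test of edgeR 4.0.16 in R 4.3.3 were applied to all 24 rats with the group as the only term, and p-values were adjusted over all genes by the Benjamini-Hochberg method. The standard error is the size of the Log2FC divided by the square root of F. Log2 CPM for correlations used a prior count of 2, and 100000 permutations within groups. Alternatives used DESeq2 1.42.0, limma-voom (limma 3.58.1) with sample weights, other filters and normalization, covariates, and fits without each single rat. The scripts were tested on simulated data.

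The members and lists were chosen with earlier results of these data known. All regulators are described. From each list, genes were named by adjusted p-value, at most 5 per direction among those called, or up to 2 with the smallest p-values where none was called, and for each regulator the 3 genes with the highest correlation. A gene that this rule would name is not reported here. Labels number the rats within groups, and nothing in them pairs rats across groups. Promoter windows came from RefSeq in build GRCr8, while the counts use mRatBN7.2, so no coordinates were carried between builds.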

Additional observations from a re-analysis of the deposited data

Results flagged for a closer look

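In 4 of the 32 groups of 6 rats formed by the 8 regulators, the highest rat lay far from the other 5 by Dixon's criterion, which chance meets in about 1 in 20 groups. They were Ppargc1b in Sed replicate 4 (16.0 CPM), Tfam in CC-Sed replicate 6 (55.9 CPM), Tfam in CC-Ex replicate 5 (62.7 CPM) and Nrf1 in Sed replicate 1 (12.2 CPM). Of the 24 rats, CC-Ex replicate 5 also had the lowest Ppargc1a, Ppargc1b, Ppara, Esrra and Esrrg levels and the lowest slow-fibre score. It had the highest Nrf1 and Tfam levels.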

How the results depend on the processing

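The number of regulators called in Sed vs. CC-Sed was 1, and it was 2 in limma-voom, 0 with the DEG criteria, and 0 to 1 with 1 rat left out. In Ex vs. CC-Ex it was 0, against 1 in both DESeq2 and limma-voom, and 0 to 1 with 1 rat left out. The mean CC effect had 2, against 3 in limma-voom, 1 with at least 50 counts in every rat (where Ppargc1b was not tested), 1 with the library number as a covariate, 1 with the DEG criteria, and 1 to 4 with 1 rat left out. Both training comparisons and the interaction kept 0 in every alternative run. Passing correlations between regulators numbered 0 in the 12 saline rats, 2 in the 12 monocrotaline rats and 3 without CC-Ex replicate 5, all alternatives added after the data were seen.

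No Log2FC of a regulator that changed sign was called, and the cause was not tested. In limma-voom these were Esrrg in Ex vs. CC-Ex (0.084), Sed vs. Ex (-0.022), CC-Sed vs. CC-Ex (0.31) and the interaction (0.33), Nrf1 in Sed vs. Ex (0.018) and the interaction (-0.11), and Esrra in the interaction (0.094). With the slow-fibre score as a covariate they were Ppargc1a in Sed vs. Ex (-0.074), Esrrg in Sed vs. Ex (-0.32), CC-Sed vs. CC-Ex (0.17) and the interaction (0.49), and Esrra (0.19) and Nrf1 (-0.023) in the interaction. With the library number they were Ppara (-0.22) and Esrra (-0.024) in CC-Sed vs. CC-Ex, and Ppargc1b (-0.012), Ppard (0.039), Tfam (0.034) and Nrf1 (-0.010) in the interaction. In DESeq2 it was Tfam (0.016), and with at least 50 counts Nrf1 (-0.0021), both in the interaction.

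With 1 rat left out, Log2FC ranges that crossed 0 were -0.32 to 0.078 for Ppara and -0.23 to 0.13 for Esrrg in Sed vs. CC-Sed, -0.32 to 0.35 for Ppargc1a in Ex vs. CC-Ex, and -0.044 to 0.32 for Esrrg and -0.080 to 0.028 for Nrf1 in Sed vs. Ex. In CC-Sed vs. CC-Ex they were -0.16 to 0.23 for Ppara, -0.11 to 0.33 for Esrra, -0.31 to 0.12 for Esrrg and -0.13 to 0.031 for Nrf1. In the interaction they were -0.095 to 0.56 for Ppargc1b, -0.19 to 0.040 for Ppard, -0.21 to 0.23 for Esrra, -0.094 to 0.044 for Tfam and -0.096 to 0.067 for Nrf1.

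With the replicate number as a block, 1, 0 and 2 regulators were called in the sedentary pair, the trained pair and the mean CC effect, as without it. Ppargc1b had a mean CC effect of -1.23 (adjusted p = 0.0307), Ppara in CC-Sed vs. CC-Ex was -0.0083, and 4 PPAR targets rather than 7 passed in Sed vs. CC-Sed. The numbers did not pair the rats: of 6 same-numbered pairs, between 1 and 4 correlated above 0.1 in the 4 comparisons, and at most 2 rats matched their own number best. Of the list counts, limma-voom gave 7 partners and 7 inputs in Sed vs. CC-Sed and 11 partners in the mean CC effect, beside 2474 and 3952 of all 10851 genes in these effects. Polg2 was not tested at 50 counts. Depth limits the regulators with few reads, whose lowest counts were 15 for Ppargc1b, 90 for Esrrg and 97 for Ppara.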
